A study of Homo sapiens with 12 samples.

Results

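The genes described are 10 cytochrome P450 genes (CYP1A1, CYP1B1, CYP2S1, CYP2E1, CYP3A5, CYP3A7, CYP7A1, CYP8B1, CYP27A1 and CYP19A1) of 59191 features in a table of gene expression of Huh7, a long-established line of human liver cancer cells. They were chosen by symbol, through their Ensembl identifiers and GENCODE 29 names. The table covers 12 RNA libraries, with 3 for each of 4 groups: cells given disulfiram, cells given thalidomide, cells given both drugs (the combination) and control cells, whose library names carry the solvent DMSO. With these groups, the effect of either drug or of both can be read against control, and that of both against either alone. No source used here gives dose units or the length of treatment. The labels' protocol text describes dissociated tumour tissue and a droplet kit for single cells, whereas the table holds 1 value per gene and library of a cell line, so the preparation of these libraries is not known. Whether the 3 libraries of a group come from separate cultures is not stated, and the p-values then cover only the differences among these libraries, which may be technical.

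Cytochrome P450 enzymes are haem proteins that insert an oxygen atom into their substrates. Those of the endoplasmic reticulum take electrons from the reductase POR, and those of mitochondria take them from the ferredoxin FDX1. In hepatocytes the first P450 families clear drugs and other foreign compounds, and others turn cholesterol into bile acids. CYP1 genes are controlled by the aryl hydrocarbon receptor AHR with its partner ARNT, CYP2B and CYP3A genes by the nuclear receptors PXR (NR1I2) and CAR (NR1I3), and CYP7A1 is repressed through FXR (NR1H4), SHP (NR0B2) and the FGF19 to FGFR4 signal. Disulfiram is known to inhibit the CYP2E1 enzyme, and thalidomide is hydroxylated to a small extent by CYP2C enzymes. Hepatoma lines are known to hold lower levels of many P450s than liver.

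The promoters of the 3 genes that differed upward between some groups are shown because 2 of these genes, CYP1A1 and CYP2S1, are known as targets of AHR and the other, CYP3A5, is a target of PXR. Of the 10 genes, 7 have a promoter entry, and CYP1B1, CYP7A1 and CYP8B1 have none. Each sequence runs 5′ to 3′ from 250 bases before to 50 bases after the start site of RefSeq on GRCh38.p14. Capitals mark GCGTG, the core of the AHR element, and TATAAA, the TATA box, searched on both strands.
CYP1A1 (chr15:74725479-74725778, minus strand): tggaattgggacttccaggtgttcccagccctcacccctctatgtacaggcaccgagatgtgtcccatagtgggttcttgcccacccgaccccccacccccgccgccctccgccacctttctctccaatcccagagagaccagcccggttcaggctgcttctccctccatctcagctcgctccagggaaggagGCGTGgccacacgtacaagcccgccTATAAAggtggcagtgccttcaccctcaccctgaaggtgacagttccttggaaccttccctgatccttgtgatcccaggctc
CYP2S1 (chr19:41192969-41193268, plus strand): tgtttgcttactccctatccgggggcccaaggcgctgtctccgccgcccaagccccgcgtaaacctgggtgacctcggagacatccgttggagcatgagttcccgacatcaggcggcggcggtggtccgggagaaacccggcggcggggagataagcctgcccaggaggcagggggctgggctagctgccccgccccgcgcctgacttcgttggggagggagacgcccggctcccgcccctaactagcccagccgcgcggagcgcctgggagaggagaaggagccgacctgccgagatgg
CYP3A5 (chr7:99679947-99680246, minus strand): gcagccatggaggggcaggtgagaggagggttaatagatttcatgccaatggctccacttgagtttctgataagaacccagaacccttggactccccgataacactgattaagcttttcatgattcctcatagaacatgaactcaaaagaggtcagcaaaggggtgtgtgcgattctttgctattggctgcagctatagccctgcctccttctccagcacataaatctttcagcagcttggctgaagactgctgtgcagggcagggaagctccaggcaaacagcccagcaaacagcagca
The CYP1A1 promoter held 1 GCGTG, starting at -57 from the start site, and 1 TATAAA, starting at -32. Neither set of letters was found in the windows of CYP2S1 and CYP3A5. No PXR element was searched for, and sequence more than 250 bases before the start site was not covered. Of 35116 promoters of the same length, 36.5% held GCGTG and 11.5% held TATAAA on either strand, so a match in a window of 300 bases is common for GCGTG. A match is a description of the letters and shows no binding.

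Only 4 of the 10 genes were expressed well enough to be judged. TPM is a length-scaled share of all transcripts, which allows levels of different genes to be set side by side within a library. The test took genes with 1 TPM or more in 3 or more libraries, which CYP27A1, CYP1A1, CYP2S1 and CYP3A5 met. In control cells CYP27A1 averaged 21.8 ± 2.37 TPM, CYP1A1 13.3 ± 4.79 TPM, CYP2S1 11.03 ± 4.09 TPM and CYP3A5 3.15 ± 0.626 TPM (SD, n = 3). CYP1A1 was above CYP2S1 in 12 of 12 libraries, and CYP2S1 above CYP3A5 in 12 of 12. CYP27A1 was above CYP1A1 in 9 of 12 libraries, so the order of this pair did not hold throughout. The lowest value of a tested gene was 1.87 TPM, for CYP3A5, and the highest value of an untested one was 0.74 TPM, for CYP2E1.

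**Figure D1:**
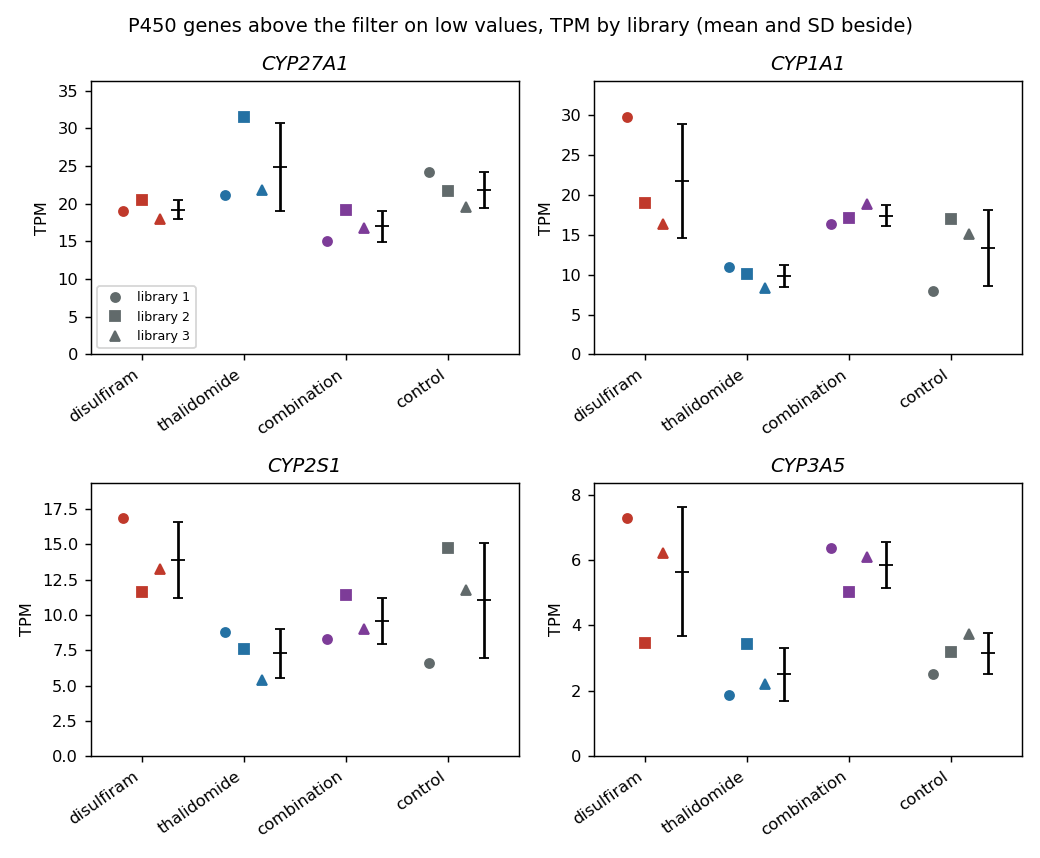
TPM (vertical axes, from 0) of CYP27A1, CYP1A1, CYP2S1 and CYP3A5 in each of the 12 libraries, by group, with the group mean and SD beside the points. CYP3A5 lay between 5.04 and 6.38 TPM in the combination libraries, above its 3 control libraries at 2.50 to 3.75 TPM. Between these groups 46.0% of all tested genes did not overlap.

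Log2 fold changes below are on log2(TPM + 1) with their standard errors, and were tested with limma over 15352 genes, with a Benjamini-Hochberg adjusted p below 0.05 as the threshold. In bulk RNA, less transcript per cell and fewer cells with the transcript cannot be told apart. With disulfiram 0 of the 4 tested P450 genes passed this threshold against control, where 13.2% of all tested genes did (8.73% higher and 4.52% lower). CYP1A1 and CYP3A5 had an unadjusted p below 0.05, which 4276 of the 15352 genes had. The libraries overlapped for all 4 genes, where 32.9% of all genes did not overlap. With thalidomide 0 of 4 passed, as for 0.00% of all genes, and none of the 4 had an unadjusted p below 0.05, which 873 of all genes had. The libraries again overlapped for all 4, where 10.2% of all genes did not overlap. With the combination 1 of 4 passed, CYP3A5, where 25.1% of all genes did (18.4% higher and 6.70% lower). Of the 10 members, 6 had no test in any comparison.

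The whole table sets the frame for these values. Each library held 13693 to 15038 genes at 1 TPM or more. Read depth is unknown, since TPM carries no counts. The median of all tested genes lay 0.20 above 0 on the log2 scale with the combination and 0.09 with disulfiram. With disulfiram 1340 genes were called higher and 694 lower, and 859 and 917 after scaling libraries by the median of ratios, which leaves a median of 0.02. With the combination the split was 2823 higher and 1029 lower, and 1568 and 1674 with that scaling, which leaves a median of 0.07. All 10 hepatocyte markers had a mean TPM of at least 1 in every group, and their sum ranged from 4104 to 4157 TPM with disulfiram, 5517 to 7668 with thalidomide, 3699 to 4828 with the combination and 4339 to 6879 in control. Against control 2 of them (APOB and TTR) were called lower and 0 higher with disulfiram and with the combination. Of all genes 4.52% and 6.70% were called lower. The median log2 fold change of the 10 was -0.62 and -0.38, beside 0.09 and 0.20 for all genes. Of 8 immune markers 2 had a mean of at least 1 TPM in each group, CD14 and LYZ, with PTPRC at 0.16 TPM or less throughout. CD14 averaged 81.9 TPM with disulfiram, 142 with thalidomide, 79.3 with the combination and 132 in control, and LYZ averaged 12.2 TPM with disulfiram, 5.09 with thalidomide, 10.8 with the combination and 5.34 in control. The cholangiocyte gene KRT7 averaged 3.00 TPM with disulfiram, 0.74 with thalidomide, 2.94 with the combination and 0.98 in control. KRT7, 1 of 5 cholangiocyte markers, reached the filter only through the disulfiram and combination libraries, so no test of it is drawn on. Of the others, 0 were called higher and 0 lower with disulfiram, where 8.73% and 4.52% of all genes were. With the combination 0 of them were called higher and 1 lower (KRT19), where 18.4% and 6.70% were. KRT19 was at 617, 820 and 654 TPM with the combination and at 949, 977 and 833 TPM in control. The median log2 fold change of the 5 was -0.11 and -0.18, beside 0.09 and 0.20 for all genes. Of 6 endothelial markers 1, PECAM1, had a mean of at least 1 TPM in each group, with VWF at 0.59 TPM or less. PECAM1, the only endothelial marker tested, was called higher against control with disulfiram and with the combination. So was LYZ, 1 of 2 tested immune markers, and 0 of either kind were called lower. Of all genes 8.73% and 18.4% were called higher. The endothelial sum was 4.25 to 7.85 TPM with disulfiram, 1.66 to 2.51 with thalidomide, 4.24 to 6.17 with the combination and 0.79 to 1.55 in control, and the part of these markers in the results was not tested. Of 7 fibroblast and stellate markers 3 to 4 had a mean of at least 1 TPM, and of 5 cholangiocyte markers 4 to 5. Deviations of single libraries from their group means followed the GC content of the gene to differing degrees. The rank correlation across genes was -0.49, 0.60 and -0.30 in disulfiram libraries 1 to 3, 0.48, -0.06 and -0.39 with thalidomide, -0.59, 0.66 and -0.37 with the combination and 0.13, -0.18 and 0.04 in control. It was highest in library 2 of the disulfiram and of the combination group, and opposite in sign in the other libraries of both groups.

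CYP1A1 encodes the enzyme that hydroxylates polycyclic aromatic hydrocarbons and is the best known AHR target (chromosome 15, 74719542 to 74725610, hg38). It was at 29.85, 19.03 and 16.39 TPM with disulfiram, at 10.98, 10.13 and 8.33 TPM with thalidomide, at 16.37, 17.08 and 18.87 TPM with the combination and at 7.90, 16.94 and 15.15 TPM in control. The first control library was the lowest of all 12, and the disulfiram and control values overlapped. The log2 fold change against control was 0.69 ± 0.26 with disulfiram (adjusted p = 0.101), -0.35 ± 0.26 with thalidomide (adjusted p = 0.968) and 0.42 ± 0.26 with the combination (adjusted p = 0.221). Without the first control library the change with disulfiram was 0.37, at an adjusted p of 0.327.

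The thalidomide libraries were the low side of the CYP1A1 values that did differ. In the combination CYP1A1 averaged 17.4 ± 1.29 TPM, against 9.81 ± 1.35 TPM with thalidomide (SD, n = 3 each), with no overlap of the libraries. This was a 1.78-fold ratio of means and a log2 fold change of 0.78 ± 0.26 (adjusted p = 0.0380), and the adjusted p was 0.0564 to 0.113 when any 1 of the 6 libraries was left out. With median-of-ratios scaling it was 0.59 (adjusted p = 0.0999). Between disulfiram and thalidomide the log2 fold change was 1.04 ± 0.26 (adjusted p = 0.0168), a 2.22-fold ratio of means, also without overlap. It missed the threshold without the first disulfiram library (0.80, adjusted p = 0.0670) or the third thalidomide library (0.93, adjusted p = 0.0579). The comparison of disulfiram with thalidomide was added after the values had been seen, and it shares its thalidomide libraries with the one before.

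CYP2S1, a P450 of many tissues that is inducible through AHR (chromosome 19, 41193049 to 41207539), was measured at levels near those of CYP1A1. It was at 16.84, 11.62 and 13.24 TPM with disulfiram, at 8.82, 7.58 and 5.42 TPM with thalidomide, at 8.33, 11.42 and 9.01 TPM with the combination and at 6.63, 14.71 and 11.74 TPM in control. The first control library was again the lowest of its group, by a wide margin. Against control CYP2S1 was at 0.36 ± 0.25 with disulfiram (adjusted p = 0.392), -0.50 ± 0.25 with thalidomide (adjusted p = 0.889) and -0.13 ± 0.25 with the combination (adjusted p = 0.708). The combination value turned to 0.09 without the second control library.

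CYP2S1 was higher with disulfiram than with thalidomide, at 13.9 ± 2.67 and 7.27 ± 1.72 TPM (SD, n = 3 each), a log2 fold change of 0.86 ± 0.25 (adjusted p = 0.0364). That call was lost with median-of-ratios scaling (0.74, adjusted p = 0.0682), and without disulfiram library 1 or 3 or thalidomide library 2 or 3 (adjusted p 0.0693 to 0.130). The combination libraries lay below all disulfiram libraries, at 9.59 ± 1.62 against 13.9 ± 2.67 TPM, but the difference of -0.49 ± 0.25 was not past the threshold (adjusted p = 0.324). Groups without overlap were found for 16.2% of all tested genes in that comparison.

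CYP1B1 and CYP2E1 were too low to judge. CYP1B1, a further AHR target that metabolises oestrogens and hydrocarbons (chromosome 2, 38066973 to 38109902), was at 0.08, 0.28 and 0.16 TPM with disulfiram, at 0.02, 0.14 and 0.12 TPM with thalidomide, at 0.13, 0.09 and 0.10 TPM with the combination and at 0, 0.09 and 0.02 TPM in control. Its antisense gene CYP1B1-AS1 reached 3.62 TPM and RMDN2, on the other strand, 1.24 TPM. Both overlap a part of it in position and the strand of the reads is not known, so reads from the shared stretches may not be told apart. CYP2E1, which oxidises ethanol and is inhibited by disulfiram as an enzyme (chromosome 10, 133520406 to 133561220), was at 0.44, 0.33 and 0.63 TPM with disulfiram, at 0.13, 0.21 and 0.06 TPM with thalidomide, at 0.74, 0.28 and 0.34 TPM with the combination and at 0.47, 0.03 and 0.17 TPM in control. The first control library lay within the disulfiram range. SCART1, which overlaps CYP2E1 on the same strand, was at 0.46 to 1.94 TPM.

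CYP3A5 rose with the combination. It encodes a drug-metabolising enzyme of adult liver and intestine with substrates like those of CYP3A4 (chromosome 7, 99648194 to 99680026). It was at 7.28, 3.45 and 6.21 TPM with disulfiram, at 1.87, 3.43 and 2.22 TPM with thalidomide, at 6.38, 5.04 and 6.10 TPM with the combination and at 2.50, 3.19 and 3.75 TPM in control. All combination libraries were above all control libraries, and 46.0% of all genes had groups without overlap there. The second disulfiram library lay within the control range. The means were 5.84 ± 0.707 TPM with the combination and 3.15 ± 0.626 TPM in control (SD, n = 3 each), a 1.86-fold ratio and a log2 fold change of 0.73 ± 0.24 (adjusted p = 0.0421).

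This rise lay close to the threshold. It was lost when combination library 1 or 3 or control library 1, 2 or 3 was left out (adjusted p 0.0607 to 0.133), and with median-of-ratios scaling (0.60, adjusted p = 0.0667), quantile normalization (0.42, adjusted p = 0.138) or correction for GC content (0.38, adjusted p = 0.132). GC content is low in CYP3A5 (42.7% of its longest transcript), and the difference between combination and control followed GC content across genes (rho -0.44). For disulfiram against control that rho was 0.001. Whether GC content accounts for the rise of CYP3A5 was not tested. With disulfiram alone the change was 0.64 ± 0.24 (5.65 ± 1.98 and 3.15 ± 0.626 TPM with disulfiram and in control, adjusted p = 0.0957). It was past the threshold without the second disulfiram library (0.91, adjusted p = 0.0180) and with the GC correction (0.55, adjusted p = 0.0439). With thalidomide it was -0.26 ± 0.24 (adjusted p = 0.972).

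Against thalidomide CYP3A5 was higher under every setting tried. The combination averaged 5.84 ± 0.707 TPM and thalidomide 2.51 ± 0.819 TPM (SD, n = 3 each), a 2.33-fold ratio of means and a log2 fold change of 0.98 ± 0.24 (adjusted p = 0.0111). The call held in 15 of 15 alternatives, with an adjusted p of 0.00280 to 0.0487. In this comparison 3 of the 4 tested P450 genes passed, where 32.2% of all genes did (25.0% higher and 7.24% lower). The same 3 did not overlap, where 44.7% of all genes did not. Between disulfiram and thalidomide the value was 0.90 ± 0.24 (adjusted p = 0.0222), past the threshold in 9 of 15 alternatives, and 3 of the 4 genes passed, where 17.1% of all genes did (11.9% higher and 5.20% lower). The libraries of all 4 genes did not overlap there, as for 32.0% of all genes. For CYP3A5 the call was lost without disulfiram library 1 or 3 or thalidomide library 1 or 3 (adjusted p 0.0650 to 0.0903). CYP3A5 did not pass between combination and disulfiram (0.08 ± 0.24, 95% interval -0.43 to 0.60, adjusted p = 0.868), where 0 of 4 genes passed and 0.00651% of all genes did.

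CYP3A7, the main CYP3A enzyme of fetal liver, was too low to judge (chromosome 7, 99684957 to 99735196). It was at 0.10, 0 and 0.06 TPM with disulfiram, at 0, 0.05 and 0.16 TPM with thalidomide, at 0.10, 0 and 0.06 TPM with the combination and at 0.09, 0.09 and 0.13 TPM in control. The read-through gene CYP3A7-CYP3A51P overlaps it on the same strand and reached 0.15 TPM. CYP3A4, the main CYP3A enzyme of adult liver, reached 0.23 TPM and CYP3A43 0.25 TPM. CYP3A genes are near copies of each other, so reads may be shared among them, and CYP3A5 was the only one of the 4 above the filter.

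**Figure D2:**
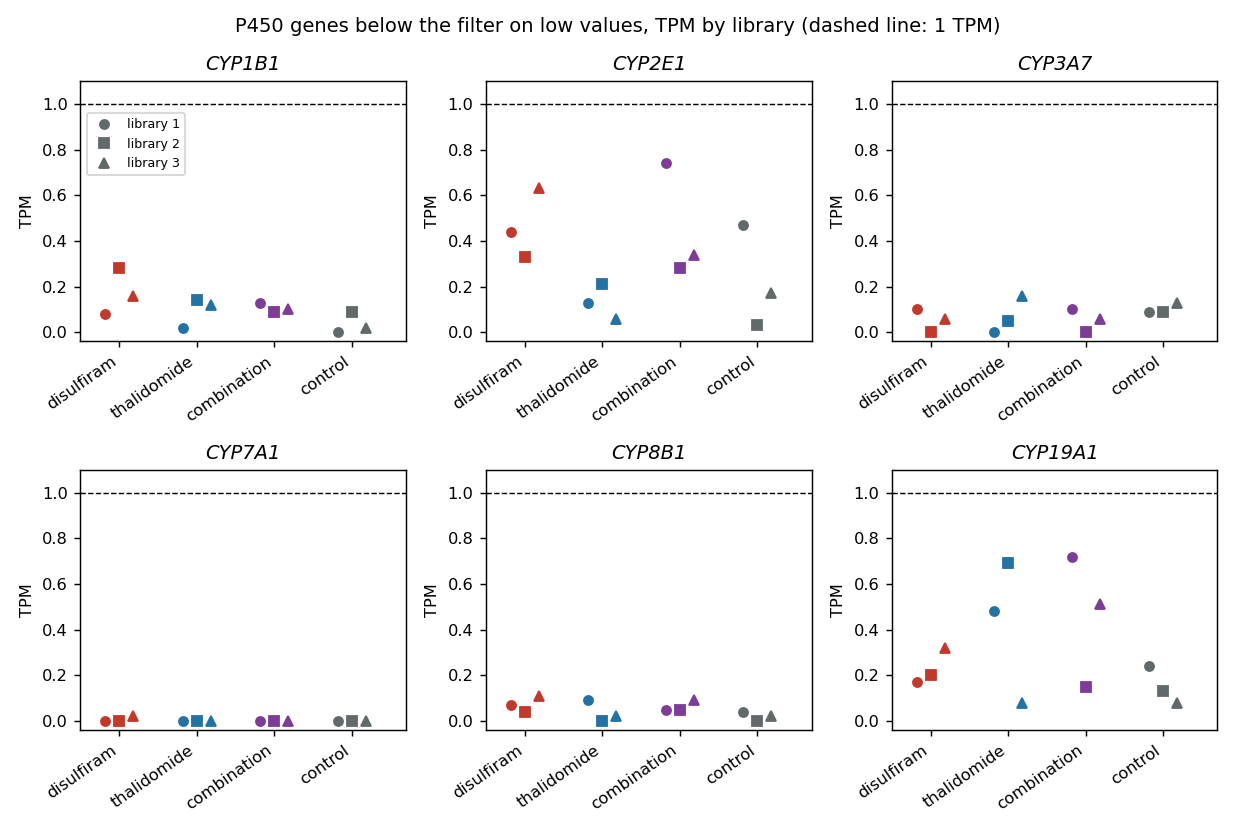
TPM (vertical axes, linear) of the 6 genes that did not reach the filter, in each of the 12 libraries by group, with a dashed line at 1 TPM. All points lie at or below 0.74 TPM, and CYP7A1 was listed at 0 in 11 of 12 libraries.

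Of the 3 genes of bile acid synthesis, only the mitochondrial sterol 27-hydroxylase was expressed at a level that can be judged. CYP7A1, the rate-limiting enzyme of the classical pathway (chromosome 8, 58490178 to 58500236), was listed at 0 in 11 of 12 libraries and at 0.02 TPM in the third disulfiram library. CYP8B1, the sterol 12-alpha-hydroxylase that makes cholic acid (chromosome 3, 42856005 to 42876165), was at 0.07, 0.04 and 0.11 TPM with disulfiram, at 0.09, 0 and 0.02 TPM with thalidomide, at 0.05, 0.05 and 0.09 TPM with the combination and at 0.04, 0 and 0.02 TPM in control. The combination libraries lay above the controls by 0.01 TPM, the last digit of the table. ACKR2 overlaps CYP8B1 on the other strand at 0.74 to 2.47 TPM.

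CYP27A1, which starts the alternative pathway of bile acid synthesis and makes the oxysterol 27-hydroxycholesterol (chromosome 2, 218781749 to 218815293), was the most abundant of the 10 genes in control cells. It was at 19.05, 20.49 and 17.97 TPM with disulfiram, at 21.15, 31.55 and 21.88 TPM with thalidomide, at 15.11, 19.15 and 16.74 TPM with the combination and at 24.26, 21.69 and 19.53 TPM in control. All combination libraries lay below all controls, and 46.0% of all genes had groups without overlap there, but the change of -0.34 ± 0.15 was not past the threshold (adjusted p = 0.105). The threshold was reached with median-of-ratios scaling (-0.50, adjusted p = 0.0404) or quantile normalization (-0.55, adjusted p = 0.0332). With disulfiram the change was -0.18 ± 0.15 (adjusted p = 0.491) and with thalidomide 0.16 ± 0.15 (adjusted p = 0.972).

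CYP27A1 was lower in the combination than with thalidomide, at 17.0 ± 2.03 and 24.9 ± 5.81 TPM (SD, n = 3 each), a log2 fold change of -0.51 ± 0.15 (adjusted p = 0.0256). The second thalidomide library was the highest of all 12, and without it the value was -0.33 (adjusted p = 0.0765). The call was also lost without combination library 1 (-0.43, adjusted p = 0.0990) or 3 (-0.50, adjusted p = 0.0768). It was lost as well when only the compared groups were fitted (adjusted p = 0.0634) and with no filter on low values (adjusted p = 0.0588). Without that thalidomide library the change with thalidomide against control was -0.01.

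CYP19A1, the aromatase that makes oestrogens from androgens (chromosome 15, 51208057 to 51338610), was too low to judge and varied widely within groups. It was at 0.17, 0.20 and 0.32 TPM with disulfiram, at 0.48, 0.69 and 0.08 TPM with thalidomide, at 0.72, 0.15 and 0.51 TPM with the combination and at 0.24, 0.13 and 0.08 TPM in control. The libraries of every treated group overlapped those of control.

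**Figure D3:**
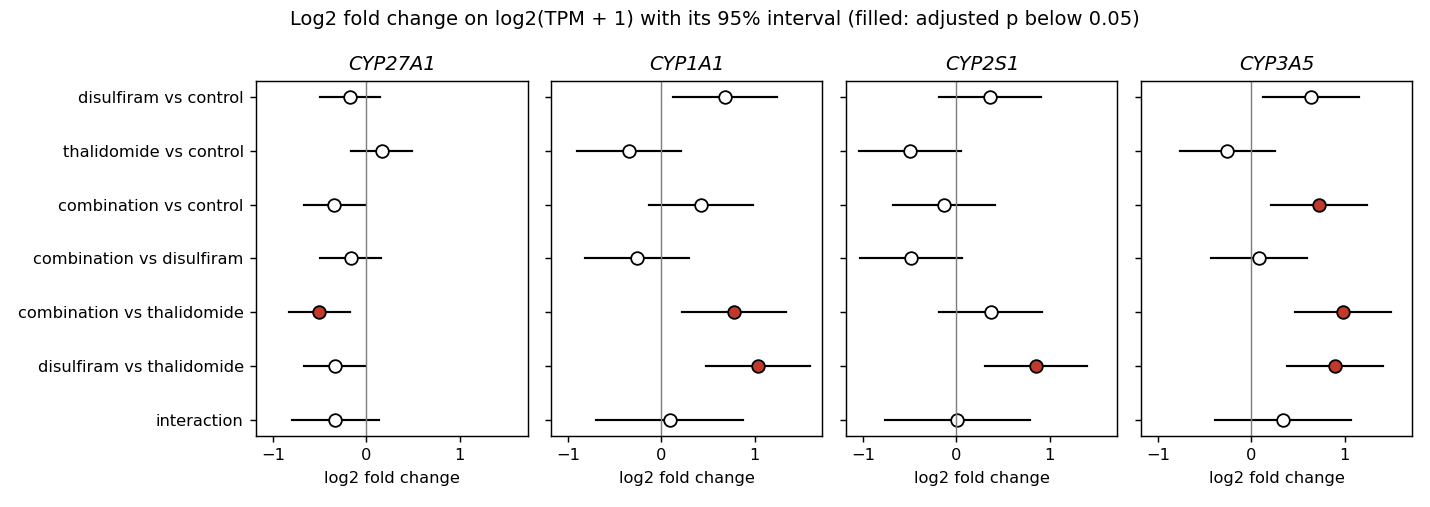
Log2 fold changes on log2(TPM + 1) (horizontal axes) of the 4 tested genes in the 6 comparisons of groups and in the interaction, with their 95% intervals; filled points have an adjusted p below 0.05. The 7 filled points are 1 for combination against control, 3 for combination against thalidomide and 3 for disulfiram against thalidomide.

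No interaction of the drugs passed the threshold for the 4 genes. The interaction, the effect of the combination less the summed effects of disulfiram and thalidomide, was 0.34 ± 0.33 for CYP3A5 (95% interval -0.39 to 1.07), 0.09 ± 0.36 for CYP1A1 (-0.70 to 0.88), 0.01 ± 0.35 for CYP2S1 (-0.76 to 0.78) and -0.33 ± 0.21 for CYP27A1 (-0.79 to 0.13). The adjusted p was 0.509 to 0.995, and 0.00% of all genes passed, with 1580 at an unadjusted p below 0.05. These intervals are wide, and an interaction within them was not detectable with 3 libraries per group.

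Across the 12 libraries the genes with the pattern most like CYP1A1 were MAFF, MUC13 and OSGIN1 (Pearson's r 0.946, 0.944 and 0.942 of log2(TPM + 1)). For CYP2S1 they were GNAL, S100A10 and GDF15 (0.920, 0.919 and 0.910), and for CYP27A1 DGUOK, TP53TG1 and METTL7A (0.954, 0.945 and 0.944). CYP3A5 was not included, since its mean was below 5 TPM. The 12 libraries fall into 4 groups, so these values describe the 12 points and carry no test.

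The other P450 genes were also mostly low in Huh7. Of 57 human P450 genes looked up, 18 passed the filter, which is 4 of the 10 described and 14 of the other 47, and 29 of the 39 untested genes stayed under 0.5 TPM in every library. Their summed TPM was 160 to 193 with disulfiram, 161 to 186 with thalidomide, 174 to 186 with the combination and 167 to 188 in control, so the groups overlapped. Of the 18 tested, 2 were called higher and 1 lower with disulfiram, where 8.73% and 4.52% of all genes were. With the combination 3 were called higher and 1 lower, where 18.4% and 6.70% of all genes were. The higher ones include CYP26A1 in each comparison, which reached the filter only through the 6 libraries of these 2 treatments. The median log2 fold change of the 18 was -0.045 with disulfiram and 0.09 with the combination, beside 0.09 and 0.20 for all tested genes.

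CYP2R1 rose with both treatments, and CYP26A1 is described by its values. CYP26A1, which degrades retinoic acid, was at 1.63, 2.40 and 2.06 TPM with disulfiram, at 1.64, 1.62 and 1.31 TPM with the combination and at 0.80, 0.81 and 0.50 TPM in control. The disulfiram and combination libraries lay above all controls, and the filter kept the gene only because of them, so no test is drawn on. CYP2R1, the vitamin D 25-hydroxylase, was at 14.02, 11.68 and 13.82 TPM with disulfiram, at 17.71, 14.26 and 17.91 TPM with the combination and at 9.83, 10.12 and 9.05 TPM in control. It rose by 0.72 ± 0.11 with the combination (adjusted p = 0.00230, past the threshold in 16 of 16 alternatives). With disulfiram it was at 0.41 ± 0.11 (adjusted p = 0.0369), a call lost without any 1 of 5 of the 6 libraries and with median-of-ratios scaling.

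CYP2B6 and CYP51A1 fell with 1 treatment each. CYP2B6, a CAR target, fell by 0.62 ± 0.19 with the combination (6.27 ± 1.53 and 10.1 ± 2.03 TPM with the combination and in control, adjusted p = 0.0339), a call lost without combination library 3 or control library 2 or 3. CYP51A1, the lanosterol demethylase of cholesterol synthesis, fell by 0.54 ± 0.16 with disulfiram (28.9 ± 5.77 and 42.3 ± 6.69 TPM with disulfiram and in control, adjusted p = 0.0434). That call was lost without disulfiram library 2 or 3 or control library 1 or 2. CYP2B6 and CYP51A1 have pseudogenes with similar sequence, so their reads may be shared.

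**Figure D4:**
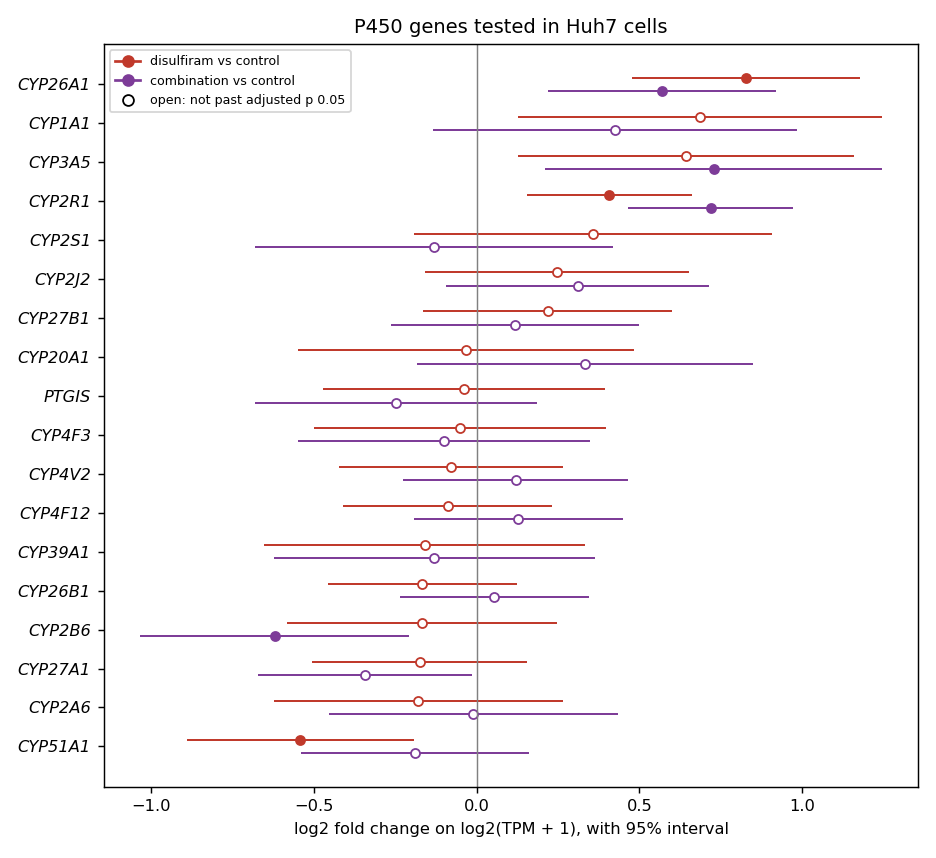
Log2 fold changes on log2(TPM + 1) (horizontal axis) with 95% intervals for the 18 tested P450 genes, with disulfiram and with the combination, each against control; open points are not past the threshold. CYP2R1 has filled points on the positive side in both comparisons; so has CYP26A1, which reached the filter only through the libraries of these treatments.

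Against control, AHR, ARNT, CAR, FXR, SHP, HNF4A and NR5A2 were not past the threshold. AHR was at 18.2 ± 4.43 TPM with disulfiram, 24.8 ± 7.62 TPM with the combination and 19.3 ± 4.29 TPM in control (-0.09 ± 0.24 and 0.32 ± 0.24, adjusted p = 0.860 and 0.324). ARNT was at 0.26 ± 0.13 and 0.21 ± 0.13 with disulfiram and the combination, CAR (NR1I3) at 0.16 ± 0.21 and 0.12 ± 0.21, FXR (NR1H4) at 0.04 ± 0.24 and 0.14 ± 0.24, and SHP (NR0B2) at -0.06 ± 0.15 and -0.01 ± 0.15. HNF4A, the nuclear receptor that maintains hepatocyte identity, was at 0.13 ± 0.10 and 0.09 ± 0.10, and NR5A2, an activator of bile acid genes, at 0.39 ± 0.19 and 0.33 ± 0.19. PXR (NR1I2) did not reach the filter, with at most 0.22 TPM in any library, and was not tested.

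Against thalidomide CYP1A1 was called with the combination and with disulfiram, and CYP2S1 with disulfiram only. AHR was higher in the combination than with thalidomide. It was at 32.20, 16.97 and 25.08 TPM with the combination and at 17.00, 12.53 and 14.56 TPM with thalidomide, so 1 combination library lay below the highest thalidomide library. The log2 fold change was 0.68 ± 0.24 (adjusted p = 0.0487). The call was lost with median-of-ratios scaling (0.49, adjusted p = 0.122), with the GC correction (0.15, adjusted p = 0.568) and without any 1 of the libraries other than combination library 2 (adjusted p up to 0.189). Between disulfiram and thalidomide AHR was at 0.27 ± 0.24 (adjusted p = 0.486). Of the 18 tested factors, 3 were called higher (AHR, NR5A2 and PROX1) and 4 lower (NR1H3, FOXA1, RXRA and CEBPA) between combination and thalidomide, where 25.0% and 7.24% of all genes were. RXRA and PROX1 are named after their values were seen.

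Of 20 transcription factors of P450 genes, 18 were tested, of which 0 rose and 2 fell with disulfiram and 0 rose and 4 fell with the combination, where the shares of all genes were those given for the P450 family (4.52% and 6.70% lower). CEBPA, a liver-enriched bZIP factor, fell by 1.07 ± 0.12 with the combination (adjusted p = 0.000257) and FOXA1, a pioneer factor, by 0.67 ± 0.10 (adjusted p = 0.00185). With disulfiram the falls were 0.84 ± 0.12 and 0.90 ± 0.10 (adjusted p = 0.00103 and 0.000324). FOXA2 fell by 0.36 ± 0.11 (adjusted p = 0.0327) and LXR alpha (NR1H3) by 0.29 ± 0.10 (adjusted p = 0.0479) with the combination. Both were lost without combination library 1 or 3 or control library 1 or 3, and NR1H3 also without control library 2. The list's median was 0.05 with disulfiram and 0.04 with the combination, beside 0.09 and 0.20 for all genes.

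**Figure D5:**
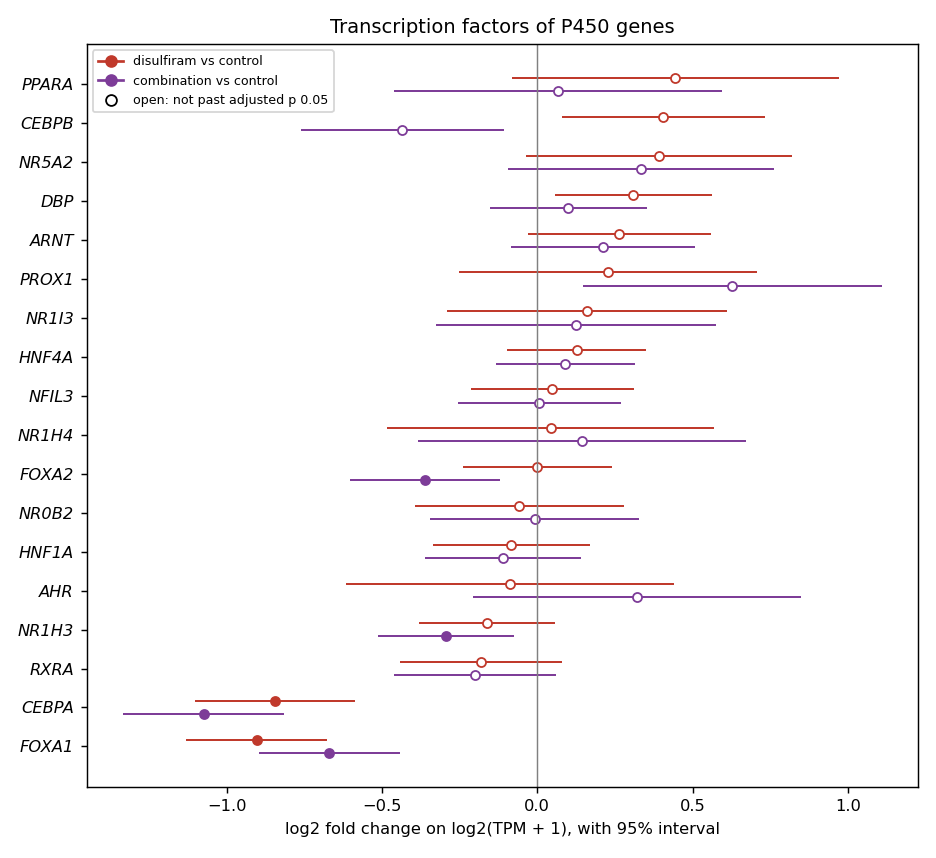
Log2 fold changes on log2(TPM + 1) (horizontal axis) with 95% intervals for the 18 tested transcription factors of P450 genes, with disulfiram and with the combination, each against control; open points are not past the threshold. CEBPA and FOXA1 have filled points on the negative side in both comparisons.

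Some targets of these receptors outside the P450 family were called. Of 8 other AHR targets 6 were tested, and 0 rose and 2 fell with disulfiram and with the combination, namely SLC7A5, which encodes an amino acid transporter, and NQO1, a quinone reductase. Of all genes, 8.73% were called higher and 4.52% lower with disulfiram, and 18.4% and 6.70% with the combination. Their falls with the combination were 1.28 ± 0.16 and 0.72 ± 0.11 on the log2 scale, and both genes are also targets of other stress factors. The list's median was -0.27 in each comparison. Of 12 other PXR and CAR targets 9 were tested. With disulfiram 1 rose, ALAS1, and 1 fell, SULT1A1, and with the combination 0 rose and 1 fell. The fall of SULT1A1 with disulfiram (-0.56 ± 0.14, adjusted p = 0.0223) was lost without disulfiram library 1 or 3 or control library 1 or 2. The sulfotransferase gene SULT1A1 fell by 0.64 ± 0.14 with the combination (37.4 ± 1.80 and 59.4 ± 9.15 TPM with the combination and in control, adjusted p = 0.00913).

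Among the genes that give P450 enzymes their electrons and haem, POR was not past the threshold, and a few genes were called in either direction. POR was at 133 ± 9.46 TPM with disulfiram, 120 ± 11.01 TPM with the combination and 128 ± 2.75 TPM in control (0.05 ± 0.08 and -0.10 ± 0.08). FDX1 was at -0.06 ± 0.16 and 0.00 ± 0.16 and its reductase FDXR at 0.17 ± 0.15 and 0.06 ± 0.15 with disulfiram and the combination. Of 19 such genes, all tested, 2 rose and 2 fell with disulfiram, and 1 rose and 3 fell with the combination, where 13.2% and 25.1% of all genes were called in these comparisons. ALAS1, the first and rate-limiting enzyme of haem synthesis, rose by 0.37 ± 0.08 with disulfiram (78.8 ± 7.61 and 60.6 ± 2.44 TPM, adjusted p = 0.0120), a call lost with median-of-ratios scaling. HMOX1, which degrades haem, rose by 0.56 ± 0.11 with disulfiram (48.0 ± 3.75 and 32.3 ± 3.93 TPM, adjusted p = 0.00681).

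UROS, an enzyme of haem synthesis, fell with both treatments. It was at 37.3 ± 1.14 TPM with disulfiram, 36.1 ± 1.58 TPM with the combination and 52.1 ± 0.0896 TPM in control (SD, n = 3 each). Its log2 fold change was -0.47 ± 0.08 with disulfiram and -0.52 ± 0.08 with the combination (limma, adjusted p = 0.00409 and 0.00245), past the threshold in 16 of 16 alternatives in each comparison. PGRMC2, a haem-binding membrane protein, rose by 0.46 ± 0.13 with the combination (adjusted p = 0.0276), a call lost with median-of-ratios scaling and without combination library 1 or 3 or control library 1 or 3. CYB5A, the cytochrome b5 that assists some P450s, fell by 0.35 ± 0.10 with the combination (adjusted p = 0.0324), a call lost without any 1 of the 6 libraries.

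Both genes of the signal that represses CYP7A1 fell, while CYP7A1 itself was near 0 in all groups. FGF19, the hormone of bile acid feedback, was at 5.36, 5.92 and 5.62 TPM with disulfiram, at 4.24, 5.19 and 4.28 TPM with the combination and at 11.28, 16.27 and 16.99 TPM in control. Its log2 fold change was -1.24 ± 0.17 with disulfiram and -1.49 ± 0.17 with the combination (adjusted p = 0.000931 and 0.000317). FGFR4, its receptor on hepatocytes, was at 154 ± 26.6 TPM with disulfiram, 145 ± 13.4 TPM with the combination and 314 ± 39.8 TPM in control (-1.03 ± 0.13 and -1.11 ± 0.13, adjusted p = 0.000471 and 0.000308). Both stayed past the threshold in 16 of 16 alternatives. Of 15 genes of bile acid feedback and transport 11 were tested, of which 0 rose and 3 fell with disulfiram and 0 rose and 2 fell with the combination, where 4.52% and 6.70% of all genes were called lower. The other fall was that of the exporter gene ABCC4 with disulfiram (-0.58 ± 0.17, adjusted p = 0.0468), which was lost without any 1 of the 6 libraries.

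Of 14 other genes of bile acid synthesis and conjugation 11 were tested, and 1 rose and 1 fell with disulfiram and 0 rose and 1 fell with the combination, where 13.2% and 25.1% of all genes were called. HSD3B7, the dehydrogenase that follows the first hydroxylation, rose by 0.67 ± 0.12 with disulfiram (48.6 ± 2.80 and 30.3 ± 3.21 TPM, adjusted p = 0.00408) and was at 0.31 ± 0.12 with the combination (adjusted p = 0.0761). ACOX2, which shortens the bile acid side chain, fell by 0.74 ± 0.21 and 0.84 ± 0.21 (adjusted p = 0.0419 and 0.0171) with disulfiram and with the combination. The first call was lost without any 1 of 5 of the 6 libraries, and the second without combination library 1 or control library 2 or 3.

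Of 18 names of oxysterol and steroid handling 17 were in the table and 12 were tested, and 1 rose and 3 fell with disulfiram and 1 rose and 4 fell with the combination, where 4.52% and 6.70% of all genes were called lower. ABCG1, a sterol exporter and LXR target, was at 4.11 ± 1.35 TPM with disulfiram, 4.29 ± 0.471 TPM with the combination and 8.76 ± 0.341 TPM in control (-0.97 ± 0.18 and -0.89 ± 0.18, adjusted p = 0.00562 and 0.00704). HSD17B2, which oxidises oestradiol and testosterone, fell by 0.81 ± 0.08 and 0.96 ± 0.08, and HSD17B7, an enzyme of cholesterol synthesis that also reduces oestrone, by 0.81 ± 0.12 and 0.72 ± 0.12. These 3 genes stayed past the threshold in 16 of 16 alternatives. STARD3, a sterol transporter of late endosomes, rose by 0.44 ± 0.10 and 0.43 ± 0.10, and both calls were lost with median-of-ratios scaling, that with disulfiram also without disulfiram library 1 or control library 2. The fourth fall with the combination was that of LPCAT3, a phospholipid enzyme and LXR target (-0.41 ± 0.09, adjusted p = 0.0106), named after its value was seen.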

How the data were processed

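The data are TPM values per gene in 12 libraries of Huh7 cells. TPM was computed by the authors and deposited as 1 table, rounded to 2 decimals, in which every column has the same total. Per the submitters' processing notes, the tools were HISAT2 2.0 and StringTie 1.3.0 and the build was hg38. No source used here gives the annotation, filters, strand or read depth, so no counting interval can be given. Of 59191 features, 58611 identifiers matched GENCODE 29. Columns were assigned by the library names in the labels.

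The value log2(TPM + 1) was fitted with limma 3.58.1 (R 4.3.3) with its mean-variance trend, all 12 libraries in 1 fit and no replicate term, for the 15352 genes that reached 1 TPM in 3 or more libraries. The tests were two-sided, with Benjamini-Hochberg adjustment over those genes. Fold changes of low genes are understated by the pseudocount. The fit was tested on simulated data. A total of 7 comparisons was fitted, that of disulfiram with thalidomide being added after the values had been seen. The 10 genes and all gene lists were chosen with earlier results of these data known. From each list, up to 4 called genes with the largest change were named, or the 2 most abundant where none passed, and a fixed set of regulators and electron donors was always named; 1 gene that this rule takes is not reported here. Promoters are from RefSeq, GRCh38.p14. GC content came from the longest GENCODE transcript of 15042 of the 15352 genes.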

Additional observations from a re-analysis of the deposited data

How the results depend on the processing

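Of the changes of the 4 tested P450 genes under the alternatives, 411 kept their side of the threshold, 44 lost it and 6 gained it, and no called change turned its direction. Only called changes could lose it, and the 411 include uncalled changes that stayed uncalled, such as all those of thalidomide against control. The 411 therefore do not measure how stable the calls were. For disulfiram against control, 1 gene (CYP3A5) passed, in place of 0, with the GC correction or without library 2 of the disulfiram and of the combination group, and 0 to 1 when any 1 library was left out. For the combination against control, 0 passed, in place of 1, with no filter on low values, with the GC correction, with the replicate block, or when only genes averaging 5 TPM or more were tested, which leaves CYP3A5 untested; leaving out any 1 library gave 0 to 1. Scaling by median of ratios or quantile normalization also gave 1, but the gene was CYP27A1 and not CYP3A5. For the combination against thalidomide, 1 passed, in place of 3, with no filter, and 1 to 2 when any 1 library was left out. For disulfiram against thalidomide, 0 passed, in place of 3, with no filter, and 0 to 3 when any 1 library was left out. With no filter more genes share the adjustment. The cause of the other changes was not tested.

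Libraries with the same replicate number were alike in some pairs only: of 18 same-numbered pairs, 4 had deviations correlated over 0.1 (range -0.15 to 0.37). The highest were between disulfiram and combination, at 0.37 for number 2 and 0.21 for number 1. Of 12 libraries 6 correlated best with their own number. The labels do not say whether a number marks libraries handled together, and this was not tested. With the replicate block, CYP3A5 in the combination against control was at an adjusted p of 0.0605, CYP1A1 in the combination against thalidomide at 0.0573 and CYP2S1 in disulfiram against thalidomide at 0.0522, and 1786 genes in place of 2034 were called with disulfiram. Without counts, the depth behind the genes under 1 TPM is unknown, and a difference between groups at that level was not detectable here.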
